A study of Mus musculus with 2 samples.

Results

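Collagen chain genes were followed across the cell classes of mouse skin. A gene was taken when its symbol was Col, digits, a and digits, when it was not Col17a1, and when it had at least 20 unique molecular identifiers (UMIs, tags that mark single captured RNA molecules) over the retained barcodes of both libraries. Of 31053 genes in the files, 44 had such a symbol and 29 met the rule. Another 14 fell under the minimum, and Col17a1, a hemidesmosome protein of keratinocytes, was left out by name. Just inside the minimum was Col11a2 with 50 UMIs and just outside was Col9a2 with 16. Col24a1 had 11 UMIs, Col28a1 8, Col2a1 7, Col6a5 6, Col10a1 4, and Col6a4, Col19a1, Col25a1 and Col13a1 had 2 each. Col22a1 and Col26a1 had 1 UMI each, and Col9a1 and Col11a1 had 0.

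The skin came from C57Bl6 mice aged 8 weeks, male and female, with no genetic alteration named, and was profiled by Chromium 10X single-cell sequencing of polyadenylated RNA. Sitagliptin, an inhibitor of the cell-surface peptidase DPP4, had been injected into the dermis at 100 ng in 100 µl of phosphate-buffered saline (PBS), and controls received PBS alone. The labels place the processing of the skin beside a time of 48 h. Each treatment had 1 library, the labels do not say how many animals it held, and no test between treatments was possible. In each library's file names a letter is the initial of the other treatment, so the libraries are called PBS-labelled and sitagliptin-labelled throughout, and a direction between them rests on those labels.

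The PBS-labelled library kept 5932 of 10456 barcodes, with a median of 6902.5 UMIs, and the sitagliptin-labelled library kept 18380 of 22085, with a median of 2197. The members took 116375 UMIs, 0.204% of the first library, and 32900 UMIs, 0.0387% of the second. Cell classes came from clusters formed and named without any collagen gene, so the collagen levels had no part in the classes. Giving the PBS-labelled library first, there were 440 and 5 fibroblasts, 3978 and 17935 keratinocytes, 68 and 13 endothelial cells, and 1133 and 47 immune cells. The fibroblasts had UMIs of 10 of 10 fibroblast markers, with a summed level of 22431 CPM (the UMIs of a gene scaled by all UMIs of the class, where 1% of the UMIs is 10000 CPM), against 483 CPM in basal keratinocytes of the same library, where 442 CPM were from Gsn alone. The same 10 markers had named the fibroblast clusters, so their level there is no test of the name. Barcodes found in both libraries numbered 75, of which 41 were retained in both. All intervals below are exact 95% intervals and cover counting error only: Poisson for a CPM, conditional binomial for a ratio and Clopper-Pearson for a share of cells. The fibroblasts of the PBS-labelled library were 7.42% of its cells and held 76.0% of its collagen UMIs, while keratinocytes held 92.9% of the collagen UMIs of the sitagliptin-labelled library.

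Collagens are proteins of 3 chains wound into a triple helix. Types I, III and V form the fibrils of the dermis, type IV forms the sheet of the basement membrane, type VI forms beaded filaments between them, and type VII forms the anchoring fibrils that tie the epidermal basement membrane to the dermis. Fibril-associated collagens coat the fibrils, types XV and XVIII are basement membrane zone proteoglycans that carry endostatin-like domains, type VIII forms short-chain networks, and type XXIII is a transmembrane collagen. In skin the fibroblast is known as the main source of fibrillar chains, and keratinocytes are known to make type VII collagen.

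The windows of 150 bases before the RefSeq start sites of some genes that differed in where they were detected are shown first, 5′ to 3′ on the gene's strand (GRCm38.p6). They come from genes high in fibroblasts (Col3a1 and Col6a3) and genes high in keratinocytes (Col7a1, Col23a1 and Col4a6). The last line is the whole stretch between the divergent genes Col4a4 and Col4a3, which were detected together in 1 keratinocyte cluster.
Col3a1, chr1:45311388-45311537, + strand: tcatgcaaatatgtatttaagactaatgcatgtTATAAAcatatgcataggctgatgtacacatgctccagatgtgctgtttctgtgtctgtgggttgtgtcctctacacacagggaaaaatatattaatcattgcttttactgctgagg
Col6a3, chr1:90843972-90844121, − strand: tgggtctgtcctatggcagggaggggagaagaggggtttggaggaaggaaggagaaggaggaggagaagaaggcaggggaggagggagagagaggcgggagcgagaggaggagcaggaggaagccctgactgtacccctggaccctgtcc
Col7a1, chr9:108953436-108953585, + strand: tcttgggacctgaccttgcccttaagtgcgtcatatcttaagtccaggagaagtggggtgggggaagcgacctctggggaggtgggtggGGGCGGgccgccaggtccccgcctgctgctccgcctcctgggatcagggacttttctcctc
Col23a1, chr11:51289770-51289919, + strand: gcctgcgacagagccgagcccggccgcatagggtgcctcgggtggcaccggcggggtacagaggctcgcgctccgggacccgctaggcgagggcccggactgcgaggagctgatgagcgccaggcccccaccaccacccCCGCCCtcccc
Col4a6, chrX:141474077-141474226, − strand: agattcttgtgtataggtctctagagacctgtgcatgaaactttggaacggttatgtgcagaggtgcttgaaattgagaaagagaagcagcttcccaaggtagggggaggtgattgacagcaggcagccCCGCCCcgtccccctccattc
Col4a4 to Col4a3, chr1:82586850-82586920, − strand: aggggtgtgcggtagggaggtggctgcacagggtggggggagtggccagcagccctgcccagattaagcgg
The capitals mark a match to TATAAA or GGGCGG on either strand, the second written CCGCCC where the match is on the other strand. The Col3a1 window had a GC content of 37.3% and held TATAAA, while those of Col7a1 and Col23a1 had 64.0% and 76.7% and held GGGCGG.

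Of the 29 members, 23 had an entry in the RefSeq table of upstream sequences. The search on both strands was for 4 motifs, none of which contains another: TATAAA was found in 2 of the 23 windows (Col3a1 and Col11a2) and in 8.08% of 27025 windows of the same length upstream of all genes. CCAAT was found in 5 windows and in 25.3% of all, GGGCGG in 14 and in 29.0% of all, and TGANTCA in 1, that of Col6a1, and in 4.27% of all. A match is only a match of letters. The windows of Col6a3, Col15a1 and Col20a1 and the 71 bases between Col4a4 and Col4a3 held none of the 4. The GC content did not separate the printed windows by cell class. It was 62.7% for Col6a3, high in fibroblasts, and 52% for Col4a6, high in keratinocytes. The windows with GGGCGG were not only those of keratinocyte genes but also those of the fibroblast genes Col5a1, Col5a3, Col6a2 and Col6a6. Of the windows with TATAAA, that of Col11a2 belongs to a gene with 0 UMIs in fibroblasts.

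The type IV genes lie in head-to-head pairs in the GENCODE vM21 annotation. Col4a1 and Col4a2 start on opposite strands of chromosome 8 and overlap by 22 bases, Col4a4 and Col4a3 lie 71 bases apart on chromosome 1, and Col4a6 and Col4a5 lie 1308 bases apart on chromosome X. No member shared its annotated 3′ end with an exon of another gene on the same strand. Col4a3 overlapped C430014B12Rik and Col9a3 overlapped Tcfl5 on the other strand. Words of 31 bases from the 3′ ends of Col5a1 (3.33%), Col27a1 (5.34%) and Col8a2 (0.185%) occurred in other genes. Whether reads of other genes entered the counts of these 5 was not tested.

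Fibroblasts held the highest CPM of 21 of the 29 members among fibroblasts, keratinocytes, endothelial and immune cells of the PBS-labelled library, against 21.3% of all genes tested there. They were Col1a1, Col1a2, Col3a1, Col5a1, Col5a2, Col5a3, Col27a1, Col4a1, Col4a2, Col4a3, Col4a4, Col6a1, Col6a2, Col6a3, Col6a6, Col9a3, Col12a1, Col14a1, Col16a1, Col20a1 and Col15a1. Keratinocytes were highest for Col7a1, Col4a5, Col4a6, Col8a2 and Col11a2, and endothelial cells for Col18a1, Col23a1 and Col8a1. When the classes were divided more finely, basal keratinocytes were highest for Col7a1, Col4a5, Col4a6 and Col11a2. Blood endothelial cells were highest for Col4a1, Col4a2 and Col15a1, and outer root sheath or bulge keratinocytes for Col18a1, Col12a1 and Col8a2. Lymphatic endothelial cells were highest for Col23a1 and Col8a1, T or innate lymphoid cells for Col27a1, and upper follicle keratinocytes for Col9a3. The other members listed for fibroblasts stayed highest there. Many of these places are not separable from the next. Among the 4 broad classes, the place of Col9a3 in fibroblasts rested on 2 UMIs, and the Col27a1 ratio of fibroblasts to immune cells was 1.35 (0.883 to 2.05). The broad places of Col8a2 (1.31, 0.720 to 2.60), Col11a2 (1.02, 0.238 to 9.22), Col23a1 (1.43, 0.886 to 2.20) and Col8a1 (2.51, 0.612 to 7.80) had intervals that included 1 as well. In the finer division the ratio to the next class had an interval that included 1 for Col4a1 (1.13, 0.894 to 1.41), Col12a1 (1.05, 0.760 to 1.45), Col18a1 (1.02, 0.611 to 1.84), Col23a1 (1.01, 0.626 to 1.56), Col4a5 (1.05, 0.731 to 1.55) and Col4a6 (1.26, 0.999 to 1.59). The same held for Col4a4, Col20a1, Col9a3, Col11a2 and Col8a1, of which the last 3 rested on 15, 7 and 4 UMIs. The 6 pericytes or smooth muscle cells, too few to rank, had 4062 CPM of collagen in all, and the 216 barcodes left without a class had 2523 CPM. Neither the 22 melanocytes nor the 69 muscle cells were ranked, and melanocytes lay above every ranked class for Col12a1, as given below.

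**Figure D1:**
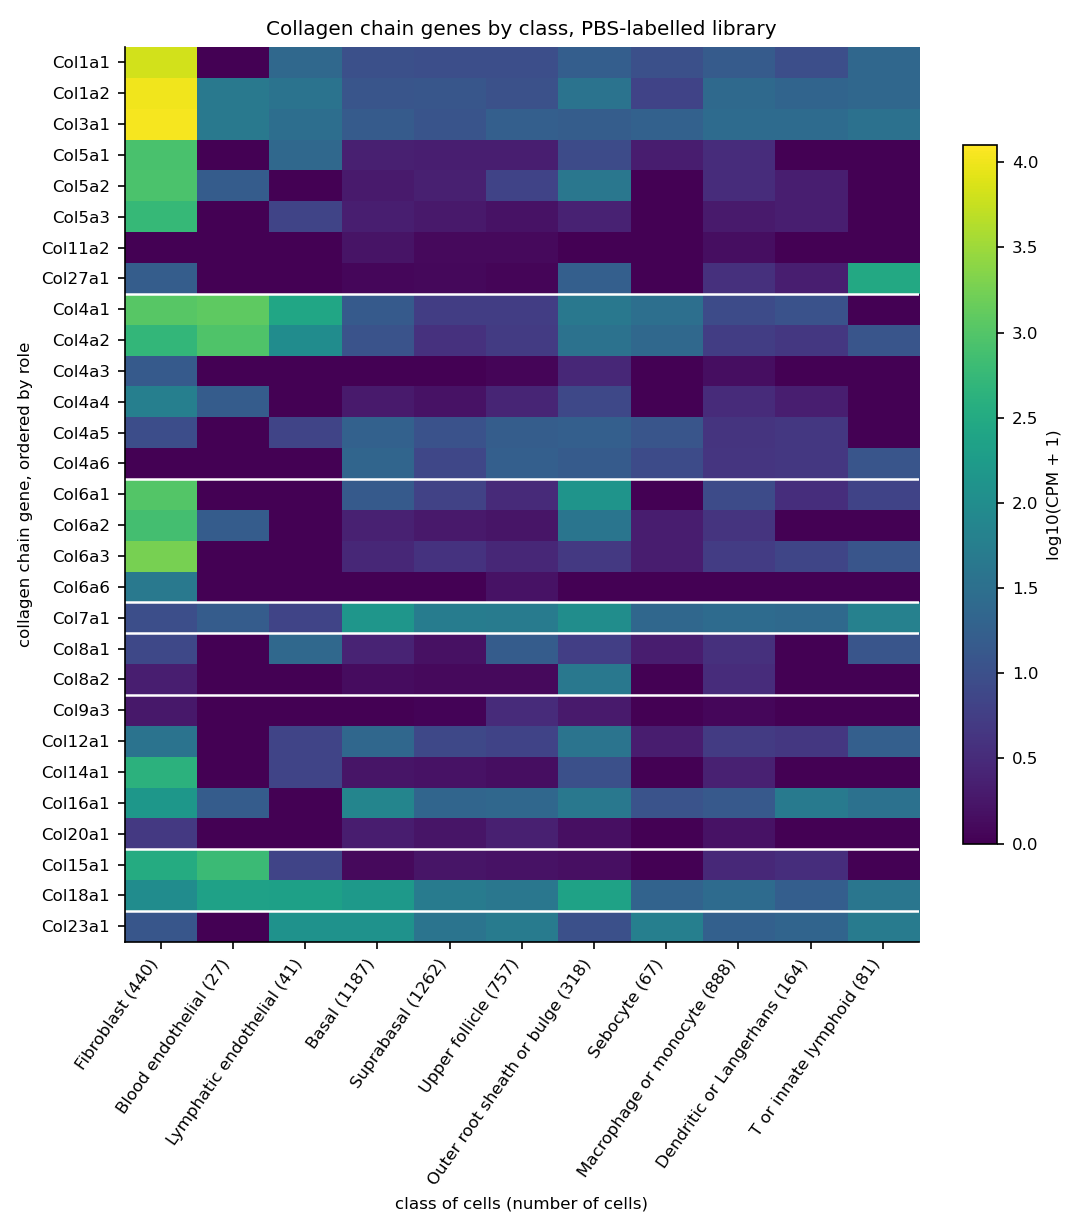
Level of each of the 29 collagen chain genes (rows, grouped by role) in 11 classes of cells of the PBS-labelled library (columns, with the number of cells), as log10 of CPM plus 1. The fibroblast column is brightest for the fibrillar and type VI rows, blood endothelial cells share the bright Col4a1, Col4a2 and Col15a1 cells, and the Col7a1, Col18a1 and Col23a1 rows are brighter in basal keratinocytes than in suprabasal ones.

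Set against keratinocytes of the PBS-labelled library, 20 of 28 members with at least 20 UMIs over both classes were at least 2-fold higher in fibroblasts, as were 22.4% of all genes, and 4 were at least 2-fold lower, as were 18.6%. The median log2 ratio was 5.44 for the members and -0.03 for all genes. Against keratinocytes of the sitagliptin-labelled library, 21 of 29 members were higher (25.4% of all genes) and 4 lower (18.4%), with a median of 4.33 against 0.04. Among these 21 was Col11a2, which had 0 UMIs in fibroblasts and was placed there only by the floor of 3 counts. Against endothelial cells, 15 of 24 were higher (17.2%) and 3 lower (16.3%), with a median of 3.43 against -0.05. Against immune cells, 21 of 25 were higher (16.1%) and 2 lower (22.7%), with a median of 6.79 against -0.16. In each of these 4 comparisons most members lay on the fibroblast side while the median of all genes lay near 0. The 13 endothelial and 47 immune cells of the sitagliptin-labelled library were too few to compare. The 5 fibroblasts there had 1052 collagen UMIs, 33763 CPM, beside 36764 CPM in the 440 of the PBS-labelled library.

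Among fibrillar chains, Col1a1 and Col1a2, the chains of type I collagen, and Col3a1, the chain of type III, were at least 278-fold higher in fibroblasts than in keratinocytes, endothelial cells or immune cells, the lowest ratio being that of Col1a2 to endothelial cells (146 to 608). Col3a1 had 26867 UMIs in fibroblasts, 11168 CPM (11035 to 11303), against 12.9 CPM in keratinocytes, 33.5 in endothelial and 26.3 in immune cells, and was 867-fold higher in fibroblasts than in keratinocytes (798 to 943). Col1a2 had 25165 UMIs, 10461 CPM (10332 to 10591), and was 866-fold higher (795 to 945). Col1a1 had 15636 UMIs, 6500 CPM (6398 to 6602), and was 713-fold higher (646 to 789). The intervals of fibroblasts and keratinocytes did not overlap for any of the 3 genes. All 3 were detected in 424 of the 440 fibroblasts (96.4%, 94.2 to 97.9), and 2 fibroblasts had none of them. A UMI of Col3a1 was found in 98.0% of fibroblasts, at a median of 5170.5 UMIs per cell, and in 11.1% of macrophages or monocytes, at a median of 4359.5, a class not known to make it.

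The type V chains, which join type I fibrils and limit their width, followed the same pattern. Col5a2 reached 852 CPM (816 to 890) in fibroblasts from 2050 UMIs, Col5a1 837 CPM (801 to 875) from 2014, and Col5a3 547 CPM (518 to 577) from 1316. Their ratios to keratinocytes were 194 (167 to 225), 541 (425 to 698) and 580 (427 to 809). A UMI was found in 90.7%, 87.0% and 72.0% of fibroblasts and in 1.13%, 1.35% and 0.450% of macrophages or monocytes. Of the remaining fibrillar chains, Col27a1 had 15.4 CPM in fibroblasts from 37 UMIs. Col11a2, known from cartilage, had 0 UMIs in fibroblasts and 15 in keratinocytes, 0.337 CPM.

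Each fibroblast devoted a different part of its RNA to collagen. The 29 genes together took between 0.109% and 17.4% of a cell's UMIs, with a median of 3.28% and with 2.47% and 4.50% at the quartiles. The median fibroblast had UMIs of 13 members.

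Type IV chains were shared among fibroblasts, endothelial cells and keratinocytes in different combinations. Col4a1 and Col4a2, the chains of the common type IV network, had 1070 CPM (1029 to 1113) from 2575 UMIs and 512 CPM (484 to 541) from 1231 UMIs in fibroblasts. They were detected in 82.5% and 71.1% of fibroblasts and in 2.93% and 1.80% of macrophages or monocytes. Against keratinocytes the ratios were 118 (107 to 132) and 73.3 (64.7 to 83.3). Against the endothelial class they were only 2.02 (1.69 to 2.43) and 1.51 (1.21 to 1.92), and the 27 blood endothelial cells alone were higher than fibroblasts for Col4a2, by 1.84-fold (1.41 to 2.37), with Col4a1 not separable at 1.13-fold (0.894 to 1.41).

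The UMI ratio of Col4a1 to Col4a2 was 2.09 (1.95 to 2.24) in fibroblasts, above that of basal keratinocytes, 1.34 (1.04 to 1.72), and of blood endothelial cells, 1.28 (0.913 to 1.81). Lymphatic endothelial cells had 2.65 (1.49 to 4.93). A ratio of UMIs between genes depends on how well each is captured, so only its change between classes can be read.

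Col4a5 and Col4a6, which form a type IV network known from basement membranes of skin and smooth muscle, went with keratinocytes. Col4a6 had 0 UMIs in the fibroblasts, where 3 UMIs would be 1.25 CPM, and 592 in keratinocytes, 13.3 CPM, at least 10.7-fold higher there. Col4a5 had 20 UMIs, 8.31 CPM, in fibroblasts and 601, 13.5 CPM, in keratinocytes, 1.62-fold higher (1.04 to 2.68). In basal keratinocytes the ratio of Col4a6 to Col4a5 was 1.18 (0.974 to 1.44) in the PBS-labelled and 1.23 (0.978 to 1.55) in the sitagliptin-labelled library. In fibroblasts it was 0, with an upper limit of 0.203. This neighbouring pair was thus detected together in keratinocytes while only Col4a5 had UMIs in fibroblasts.

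Col4a3 and Col4a4, the chains of a specialised type IV network known from kidney, were found in fibroblasts at 13.3 CPM from 32 UMIs and 58.2 CPM from 140 UMIs. Within keratinocytes of the PBS-labelled library, 26 of 32 Col4a3 UMIs and 52 of 101 Col4a4 UMIs came from a single cluster, described below.

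Among type VI chains, Col6a3, the long chain of the beaded filament, had 1832 CPM (1778 to 1886) in fibroblasts from 4406 UMIs and 2.40 CPM in keratinocytes, a ratio of 763 (630 to 933). Col6a1 had 1006 CPM (966 to 1046) from 2419 UMIs and Col6a2 760 CPM (726 to 796) from 1829 UMIs, with ratios of 78.2 (71.4 to 85.8) and 263 (220 to 316). A UMI was found in 90.7%, 91.1% and 85.5% of fibroblasts and in 1.58%, 3.49% and 1.58% of macrophages or monocytes. Col6a6, an alternative to the Col6a3 chain, had 44.9 CPM from 108 UMIs and a ratio of 222 (113 to 499).

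The ratio of Col6a1 to its partner chains was higher in keratinocytes than in fibroblasts. The UMI ratio of Col6a1 to Col6a2 was 1.32 (1.24 to 1.41) in fibroblasts and 9.56 (5.70 to 17.2) in basal keratinocytes of the PBS-labelled library. In basal keratinocytes of the sitagliptin-labelled library it was 11.7 (6.14 to 25), and in outer root sheath or bulge keratinocytes it was 3.51 (2.73 to 4.56) and 3.78 (3.35 to 4.29) in the 2 libraries. Col6a1 reached 134 CPM in outer root sheath or bulge keratinocytes of the PBS-labelled library, 13.3% by level of the fibroblasts, and Col6a2 reached 38.1 CPM there, while Col6a3 stayed at or below 7.27 CPM in every keratinocyte cluster of that library.

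Fibril-associated chains were divided between dermis and epidermis. Col14a1 was a fibroblast gene, with 434 CPM (408 to 462) from 1045 UMIs and a ratio to keratinocytes of 472 (346 to 662), and was detected in 65.7% of fibroblasts and 0.788% of macrophages or monocytes. Col16a1 had 145 CPM (131 to 162) in fibroblasts, but 71.2 CPM (66.4 to 76.3) in basal keratinocytes, a ratio of only 2.04 (1.80 to 2.32). Col12a1 had 34.9 CPM in fibroblasts from 84 UMIs and 36.6 CPM in outer root sheath or bulge keratinocytes from 77 UMIs, which cannot be told apart (ratio 1.05, 0.760 to 1.45). Col20a1 had 3.74 CPM in fibroblasts from 9 UMIs, and Col9a3 had 2.20 CPM in upper follicle keratinocytes from 15.

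In keratinocytes of the PBS-labelled library, members at 0.2 or more of their fibroblast level were ranked by UMIs. The 4 with the most UMIs among them were Col18a1, Col7a1, Col23a1 and Col16a1. Col7a1 had 3430 UMIs in keratinocytes, 77.0 CPM, and 21 in fibroblasts, 8.73 CPM, which made it 8.82-fold higher in keratinocytes (5.76 to 14.3). Col23a1 had 2729 UMIs, 61.3 CPM, and was 5.26-fold higher than in fibroblasts (3.63 to 7.93). Of the fibroblast UMIs, 13 of the 21 of Col7a1 and 19 of the 28 of Col23a1 lay in the 50 cells of cluster 44. Without that cluster, the ratios were 19.96 (10.1 to 46.3) for Col7a1 and 14.1 (7.42 to 30.9) for Col23a1. Col18a1 had 3854 UMIs, 86.5 CPM, close to the 98.1 CPM of fibroblasts (0.882-fold, 0.773 to 1.01). Col16a1 had 1565 UMIs, 35.1 CPM, which was 0.241 of the fibroblast level. The fibroblasts also had 1575 CPM of Krt5 and Krt14, the keratins of basal keratinocytes, against 16843 CPM in keratinocytes, and the part of free keratinocyte RNA in their Col7a1 and Col23a1 was not tested.

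Type XV and type XVIII, the pair that carry endostatin-like domains, parted from each other. Col15a1 was found in fibroblasts at 333 CPM (311 to 357) from 802 UMIs and in blood endothelial cells at 633 CPM (458 to 853) from 43, 1.90-fold higher (1.36 to 2.58), and in keratinocytes at 0.561 CPM. Col18a1 had 225 CPM (205 to 246) in outer root sheath or bulge keratinocytes, 221 in blood endothelial, 210 in lymphatic endothelial and 162 (154 to 169) in basal cells. The intervals of the first 3 overlapped.

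Fibroblast clusters differed in their mix of chains. There were 8 clusters with at least 33 cells each, formed without collagen genes, and their collagen shares ran from 2.52% of UMIs in cluster 44 to 7.49% in cluster 47. Cluster 47, 33 cells led by Cyp2f2, Dcn, Cilp and Htra3, had 29183 CPM of Col1a2, 21361 of Col1a1 and 18790 of Col3a1, against lowest cluster values of 6299, 4326 and 7443 CPM. Its Col16a1 was also the highest, 598 CPM (472 to 748), and its Col18a1 was 194 CPM (126 to 287). The same cells had the lowest Col14a1, 31.1 CPM (8.47 to 79.6), Col6a3, 660 CPM, and Col4a1, 303 CPM. They thus combined the highest type I, type III and Col16a1 levels with the lowest Col14a1, Col6a3 and Col4a1.

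Cluster 43, 60 cells led by Cilp, Wisp2 and Sfrp2, was the reverse for Col14a1. It had 1192 CPM of Col14a1 (1059 to 1337), 38.4-fold that of cluster 47 (14.8 to 142), and 143 CPM of Col12a1 (99.9 to 199), while Col12a1 in cluster 13 rested on 1 UMI. Col4a2 was lowest there, 184 CPM, and Col4a1 was 393 CPM, both far under the 731 and 1617 CPM of cluster 40. Cluster 45, 41 cells led by Meg3 and Myoc, was highest for Col6a1 (1555 CPM), Col6a2 (1458), Col6a3 (2416), Col5a1 (1135), Col5a2 (1033), Col5a3 (915) and Col15a1 (522). Cluster 44, 50 cells led by Apod and Sfrp4, had all 9 of the fibroblasts' Col20a1 UMIs and the highest Col23a1 (57.2 CPM), Col27a1 (51.2) and Col7a1 (39.2). Of the 12 chains with the most UMIs in fibroblasts, Col5a2 varied least between clusters, 1.69-fold (1.38 to 2.07), and Col14a1 most.

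**Figure D2:**
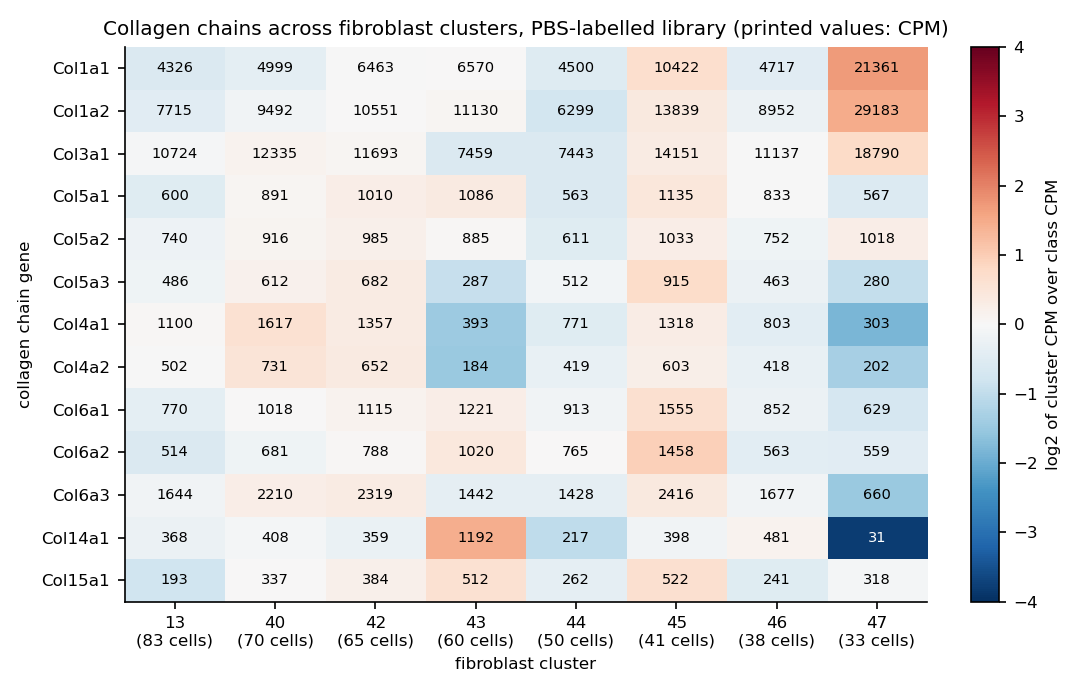
CPM (printed values) of the 13 collagen chain genes with the most UMIs in fibroblasts, in the 8 fibroblast clusters of the PBS-labelled library (columns, with the number of cells). Colour is the log2 ratio of the cluster to the whole class, red above and blue below. Cluster 47 is red for Col1a1, Col1a2 and Col3a1 and blue for Col14a1, Col6a3 and Col4a1, and cluster 43 is red for Col14a1.

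A UMI of Dpp4, the gene of the enzyme that sitagliptin inhibits, was found in 220 of the 440 fibroblasts. Cells with one had a median of 6393.5 UMIs and cells without 3883.5, so the division also follows depth. Col3a1 was equal in the groups, 11235 and 11065 CPM (ratio 1.02, 0.991 to 1.04). Col1a1 was lower with a Dpp4 UMI, 5688 against 7752 CPM (0.734, 0.711 to 0.757), as were Col1a2 (0.814, 0.794 to 0.835), Col15a1 (0.735, 0.638 to 0.847), Col6a2 (0.765, 0.697 to 0.840) and Col16a1 (0.641, 0.517 to 0.795). Col6a3 (1.10, 1.04 to 1.17) and Col4a1 (1.11, 1.03 to 1.21) were slightly higher. Dpp4 itself ran from 69.9 CPM in cluster 45 to 441 in cluster 46. Clusters 46 and 13, the highest for Dpp4 at 441 and 430 CPM, had collagen shares of 3.21% and 3.0%, and clusters 45 and 47, at 69.9 and 101 CPM, had 5.03% and 7.49%. How much of the Dpp4 division is the mix of clusters was not tested.

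In the epidermis of the PBS-labelled library, Col7a1, Col23a1, Col18a1 and Col16a1 were higher in the basal layer, whose cells touch the basement membrane, than in suprabasal cells. There, 10 of 21 members with 20 UMIs were at least 2-fold higher in basal cells, as were 13.9% of all genes, and 0 were lower, as were 9.79%. The median log2 ratio was 0.85 for members and 0.18 for all genes. Col7a1 had 141 CPM (134 to 148) in basal and 51.3 CPM (48.1 to 54.8) in suprabasal cells, a ratio of 2.75 (2.54 to 2.99). The ratio was 3.30 (3.0 to 3.63) for Col23a1, 3.31 (3.05 to 3.59) for Col18a1, 3.41 (3.01 to 3.86) for Col16a1, 3.36 (2.69 to 4.21) for Col12a1, 3.19 (2.54 to 4.03) for Col4a6 and 3.02 (2.29 to 4.01) for Col4a1. The main fibrillar chains did not take part: Col3a1 was at 14.0 and 10.7 CPM, Col1a2 at 11.1 and 11.6, and Col1a1 at 9.02 and 8.62.

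In the sitagliptin-labelled library 7 of 21 members were at least 2-fold higher in basal cells, as were 11.8% of all genes, and 6 were lower, as were 11.2%. The median log2 ratio was 0.13 for members and 0.15 for all genes. Those higher were Col18a1, Col7a1, Col23a1, Col16a1, Col4a2, Col12a1 and Col4a6, each of which was also in the list of the other library. Those lower were Col3a1, Col1a2, Col1a1, Col6a3, Col8a2 and Col20a1.

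Chains differed in the keratinocyte clusters where they were highest, and several shared a cluster. Col23a1 and Col16a1 (cluster 3), Col6a1 (16), Col12a1 (8) and Col4a3 and Col4a4 (17) were highest in the same cluster in both libraries. So were the genes of cluster 20 given below. The top cluster of Col7a1, Col18a1, Col8a2, Col8a1 and many others differed between the libraries. Col7a1 was at 164 and 163 CPM in the non-cycling basal cluster 3, at 117 and 127 in the cycling basal cluster 9, and at 173 and 138 in cluster 8 of the outer root sheath or bulge, giving the PBS-labelled library first. Col23a1 had 135 and 139 CPM in cluster 3 and 106 and 132 in cluster 9, but only 7.57 and 24.5 in cluster 8 and 0 and 14.9 in cluster 16. Type VII and type XXIII, alike in the basal epidermis, thus differed in the follicle. Col18a1 was highest in clusters 16 and 8, at 309 and 242 CPM and at 295 and 285 CPM.

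Cluster 16, led by Ramp1, Fgf18 and Sncg, and cluster 8 also had the highest levels of Col6a1 and Col8a2. Col6a1 was at 325 and 251 CPM in cluster 16 and at 206 and 219 in cluster 8, and at 1.63 and 2.78 in cluster 2 of the upper follicle. Col8a2 was at 84.6 and 68.9 CPM in cluster 16 and at 69.7 and 70.1 in cluster 8, and at 0.172 and 0.279 in basal cluster 3. Its partner in type VIII, Col8a1, lay elsewhere, at 14.7 and 20.4 CPM in cluster 2 and 12.9 and 15.8 in cluster 10, and at only 4.54 and 5.62 in cluster 8. Cluster 17 had the highest Col8a1 of the sitagliptin-labelled library, 25.6 CPM (16.4 to 38.1) from 24 UMIs. Col12a1 was highest in cluster 8, at 77.3 and 79.7 CPM.

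Cluster 17, 74 and 283 cells whose class was not resolved, carried Col4a4 and Col4a3. Col4a4 was at 142 CPM (106 to 186) and 164 CPM (139 to 192) there, and the next cluster of the PBS-labelled library had 10.6. Col4a3 was at 70.8 CPM (46.2 to 104) and 43.7 CPM (31.4 to 59.3), and the next had 4.54. Of the 32 Col4a3 UMIs in all keratinocytes of the PBS-labelled library, 26 were in these 74 cells. The divergent pair separated by the 71 bases printed above was highest in the same cluster in both libraries.

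Cluster 20, 98 and 178 cells led by Fam13a, Slc7a2, Cldn10 and Wif1, had the highest Col1a2, Col4a1, Col4a2, Col14a1 and Col27a1 of all keratinocyte clusters in both libraries. Col1a2 was at 44.8 CPM (31.6 to 61.8) and 56.6 CPM (41.0 to 76.2), from 20 cells with a UMI in each library and with at most 11 and 9 UMIs in 1 cell, while Col3a1 was at 12.1 and 1.32. Col27a1 was at 40.0 and 27.6 CPM and at most 2.51 in any other cluster. Col5a2 was at 48.5 and 39.5 CPM, near the 42.4 and 40.7 of cluster 8 and the 46.3 and 44.8 of cluster 17, against 0.516 and 0.279 in basal cluster 3. Col4a1 was at 75.1 and 88.2 CPM and Col4a2 at 67.9 and 54.0 CPM.

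**Figure D3:**
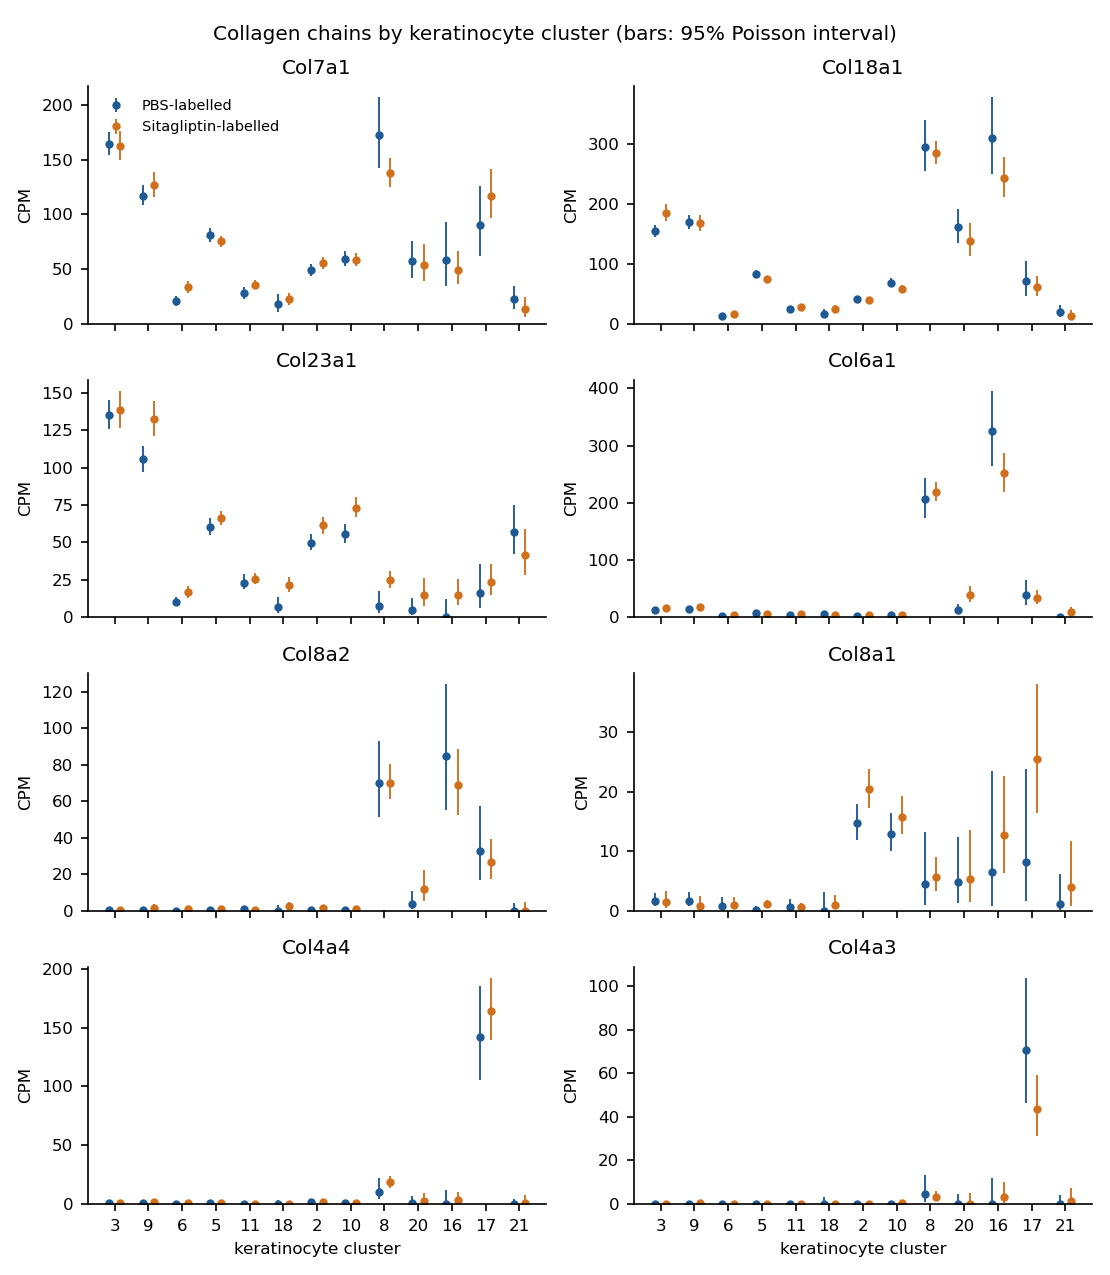
CPM of 8 collagen chain genes in the 13 keratinocyte clusters (horizontal axis, cluster number) that had at least 50 cells in both libraries, PBS-labelled in blue and sitagliptin-labelled in orange, with 95% Poisson intervals. The genes peak in different clusters. In both libraries Col7a1 is high in 3, 8 and 9, Col23a1 in 3 and 9, and Col6a1 and Col8a2 in 8 and 16. Col4a3 and Col4a4 peak in 17 in both libraries. Col8a1 is high in 2 and 10, and its highest sitagliptin-labelled point, with a wide interval, is in 17.

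In endothelial cells of the PBS-labelled library, members at 0.2 or more of their fibroblast level were ranked in the same way. The 4 with the most UMIs were Col4a1 with 127 UMIs (531 CPM), Col4a2 with 81 (339 CPM), Col18a1 with 51 (213 CPM) and Col15a1 with 44 (184 CPM). Col18a1 was 2.17-fold higher than in fibroblasts (1.57 to 2.95). The blood and lymphatic cells differed in their chains. Col4a1 was at 1208 CPM (961 to 1499) in 27 blood endothelial cells and 263 CPM (192 to 352) in 41 lymphatic cells, Col4a2 at 943 and 99.3 CPM, and Col15a1 at 633 and 5.84 CPM, the last from 43 UMIs and 1 UMI. Col23a1 ran the other way, with 21 UMIs in 14 of the 41 lymphatic cells, 123 CPM (75.9 to 187), and 0 UMIs in the blood endothelial cells, which allows up to 54.3 CPM. Its lymphatic level was near that of basal keratinocytes, 121 CPM, whose Krt5 and Krt14 were at 35859 CPM against 812 CPM in the lymphatic cells. The part of free keratinocyte RNA in the lymphatic value was not tested.

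In immune cells of the PBS-labelled library, members at 0.2 or more of the fibroblast level were ranked likewise. Col7a1 (165 UMIs, 27.2 CPM), Col18a1 (154, 25.3 CPM), Col23a1 (113, 18.6 CPM) and Col27a1 (69, 11.4 CPM) had the most UMIs. The first 3 were also those with the most UMIs in the keratinocyte ranking above, though Col18a1 and Col23a1 had their highest CPM in endothelial cells. The same immune cells had 4168 CPM of Krt5 and Krt14. Muscle cells likewise had Col7a1 (15 UMIs, 43.9 CPM), Col18a1 (14, 41.0 CPM), Col23a1 (13, 38.0 CPM) and Col12a1 (3, 8.78 CPM), beside 6378 CPM of Krt5 and Krt14, in 69 cells. The part of free RNA in these values was not tested.

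Among the immune classes, Col27a1 was mostly found in T or innate lymphoid cells. These had 54 of the immune UMIs, 301 CPM (226 to 392), in 27 of 81 cells, at a median depth of 1653 UMIs. The part of free RNA in Col27a1 was not tested. Macrophages or monocytes had 14 UMIs, 2.76 CPM, in 8 of 888 cells at a median of 4359.5 UMIs, and dendritic or Langerhans cells had 1. The 14 lymphoid cells of the sitagliptin-labelled library had 7 UMIs in 4 cells, 100 CPM (40.3 to 207). The next class, outer root sheath or bulge keratinocytes, was at 16.7 CPM, 18.1-fold lower than the lymphoid cells (11.6 to 28.5). The 3′ end of Col27a1 is 1 of those with words found in other genes. Another small class, 22 melanocytes, had 18 UMIs of Col12a1 in 11 cells, 176 CPM (104 to 279), a value chosen after it was seen.

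Most genes that modify, secrete and degrade collagen were also higher in fibroblasts than in keratinocytes. Among 18 genes of chain modification and folding, 17 had 20 UMIs in fibroblasts and keratinocytes of the PBS-labelled library, and 15 were at least 2-fold higher in fibroblasts and 1 lower, with a median log2 ratio of 3.14. The shares of all genes were 22.4% and 18.6%, with a median of -0.03. P4ha3, a subunit of prolyl 4-hydroxylase, was at 60.7 against 0.0898 CPM, a ratio of 676 (258 to 2514), and Plod2, a lysyl hydroxylase, at 231 against 1.01 CPM, a ratio of 229 (169 to 317). P3h2, a prolyl 3-hydroxylase that acts on type IV chains, was the exception, at 2.49 against 40.6 CPM, a ratio of 0.0615 (0.0225 to 0.134).

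Of 14 genes of secretion and processing, 13 had enough UMIs and all 13 were higher in fibroblasts, with a median log2 ratio of 8.60. Loxl1, a cross-linking oxidase, was at 934 against 0.830 CPM and Adamts2, the procollagen N-proteinase, at 917 against 0.965 CPM. Of 12 genes of degradation and its inhibitors, 11 were higher and 0 lower, with a median of 4.59. Ctsk, a collagen-degrading cathepsin, was at 197 against 0.539 CPM. Mmp13, a collagenase, had 0 UMIs in fibroblasts and 55 in keratinocytes, which were only 1.23 CPM. The floor given to a group at 0 is 1.25 CPM in these fibroblasts, so Mmp13 could not be called higher in either class. Of 8 receptor genes 7 could be compared, 4 were higher and 1 lower, with a median of 1.36. Ddr2, a receptor for fibrillar collagen, was at 242 against 9.07 CPM and Itga11 at 29.1 against 0.135 CPM, whereas Ddr1, its epithelial relative, was at 19.5 against 125 CPM, a ratio of 0.156 (0.115 to 0.208). Among the proteoglycans, Lum and Dcn are among the markers that named the fibroblast class and thus give no comparison. Bgn was at 638 against 5.43 CPM, a ratio of 117 (103 to 135).

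Between the libraries, the chains that were high in basal keratinocytes had close levels and the main fibrillar chains did not. In basal keratinocytes (1187 and 1321 cells), 0 of 18 members were at least 2-fold higher in the sitagliptin-labelled library, as were 1.49% of all genes, and 4 were at least 2-fold lower, as were 2.01%. The median log2 ratio was -0.06 for the members and 0.01 for all genes. Col7a1 was at 145 CPM against 141 in the PBS-labelled library, a ratio of 1.02 (0.946 to 1.11), Col18a1 at 177 against 162 (1.09, 1.02 to 1.17), Col23a1 at 135 against 121 (1.12, 1.03 to 1.22) and Col16a1 at 67.3 against 71.2 (0.945, 0.842 to 1.06). Col4a1 was at 8.55 against 13.6 CPM (0.628, 0.460 to 0.849).

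The 4 lower genes were all fibroblast genes. Col3a1 had 4 UMIs against 158, a ratio of 0.0395 (0.0106 to 0.103), Col1a1 5 against 102 (0.0765, 0.0243 to 0.184), Col1a2 10 against 126 (0.124, 0.0580 to 0.235) and Col6a3 2 against 21 (0.149, 0.0169 to 0.608). Of 10 fibroblast markers, 8 were at least 2-fold lower in the same cells, among them Dcn with 6 UMIs against 106 and Lum with 1 against 21, and Pdgfra, Dpt, Mfap5 and Serpinf1 were at 0 in the sitagliptin-labelled library. Fbln1, at 20.96 against 19.5 CPM, and Gsn, at 483 against 442, were not lower. The summed level was 505 against 483 CPM for the whole list, 22.6 against 40.2 without Gsn, of which Fbln1 made up most in the sitagliptin-labelled library, and 1.66 against 20.7 without both. In the PBS-labelled basal keratinocytes Col3a1, Col1a2 and Col1a1 stood at 0.125%, 0.106% and 0.139% of their fibroblast levels. Their Col1a2 to Col3a1 ratio was 0.797 (0.626 to 1.01), beside 0.910 (0.705 to 1.17) in macrophages and 0.937 (0.921 to 0.953) in fibroblasts. Other keratinocytes of that library were at 1.08 (0.886 to 1.33) in suprabasal, 0.591 (0.428 to 0.810) in upper follicle and 2.31 (1.51 to 3.62) in outer root sheath or bulge cells. How much of the fibrillar UMIs in keratinocytes is free fibroblast RNA was not tested, and with 5 fibroblasts in the sitagliptin-labelled library, this cannot be told apart from the label.

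**Figure D4:**
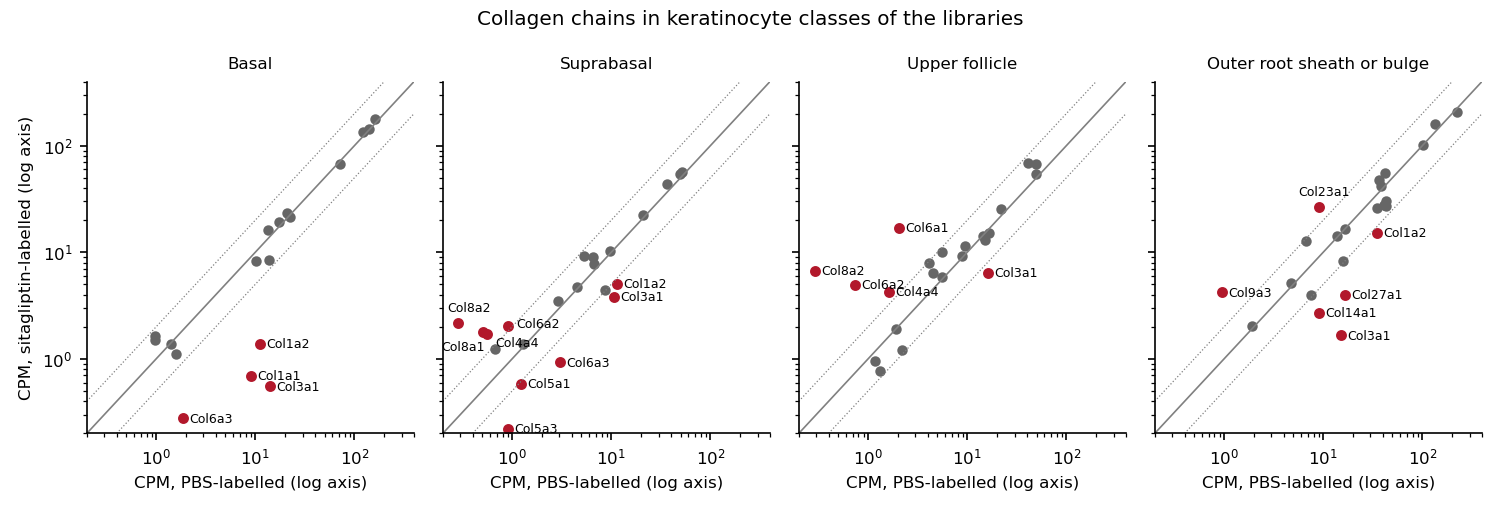
CPM in the PBS-labelled (horizontal) against the sitagliptin-labelled library (vertical), both on log axes, of collagen chain genes with at least 20 UMIs over both libraries and a UMI in each, in 4 keratinocyte classes. The solid line is equality and the dotted lines are 2-fold, and named red points lie outside them. In basal cells Col1a1, Col1a2, Col3a1 and Col6a3 lie far below the line, and the genes above 20 CPM lie close to it.

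In suprabasal keratinocytes (1262 and 6455 cells), 4 of 22 members were at least 2-fold higher in the sitagliptin-labelled library, as were 3.31% of all genes, and 5 were lower, as were 2.46%. Higher were Col8a2, at 2.19 against 0.282 CPM (7.78, 3.21 to 24.5), Col8a1 (3.51, 1.75 to 7.97), Col4a4 (3.03, 1.55 to 6.58) and Col6a2 (2.27, 1.32 to 4.15). Lower were Col5a3 (0.243, 0.0947 to 0.584), Col6a3 (0.304, 0.195 to 0.469), Col3a1 (0.359, 0.289 to 0.446), Col1a2 (0.439, 0.360 to 0.535) and Col5a1 (0.472, 0.253 to 0.882). The split changed with how cells were weighted. With cells thinned to 1000 UMIs, 8 of 17 members were higher, Col1a1 among them, and Col3a1 alone was lower. As a mean of single-cell CPM, 7 of 22 were higher and 2 lower, Col6a3 and Col5a3, so that Col3a1 and Col1a2 were no longer at least 2-fold lower. Cluster 1, which held 3064 of these cells in the sitagliptin-labelled and 25 in the PBS-labelled library, had a median of 1765 UMIs, and different clusters thus held most of the class in the libraries. For Col8a2, cluster 1 had 45 of the 90 UMIs of the class. The summed fibroblast markers without Gsn were at 18.8 against 30.5 CPM in the same cells, and without Gsn and Fbln1 at 6.82 against 20.5, and their part in the fibrillar difference was not tested.

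Upper follicle cells (757 and 5977) had 4 of 22 members higher in the sitagliptin-labelled library (5.65% of all genes) and 1 lower (1.53%). Col8a2 was at 6.70 against 0.294 CPM, from 105 UMIs against 2 (22.8, 6.16 to 191), Col6a1 at 16.8 against 2.06 (8.16, 4.78 to 15.1), and Col6a2 and Col4a4 were also higher, while Col3a1 was lower (0.395, 0.298 to 0.523). Here too the classes were made of different clusters. Cluster 0 held 4523 of these cells in the sitagliptin-labelled and 15 in the PBS-labelled library, and 96 of the 105 Col8a2 UMIs and 242 of the 263 Col6a1 UMIs. In cluster 2, which both libraries shared, Col6a1 was at 2.78 against 1.63 CPM. Outer root sheath or bulge cells (318 and 1899) had 2 of 23 higher (3.7%), Col23a1 (2.96, 1.85 to 5.02) and Col9a3, and 4 lower (3.24%), Col3a1 (0.109, 0.0524 to 0.213), Col1a2 (0.431, 0.320 to 0.584), Col14a1 (0.296, 0.152 to 0.582) and Col27a1 (0.237, 0.142 to 0.396). This class, too, was made of different clusters in the libraries. Cluster 20 made up 98 of its 318 cells under the PBS label but only 178 of its 1899 under the other, where cluster 14 had 482 cells against 20. Within cluster 20, Col27a1 was at 27.6 against 40.0 CPM and Col3a1 at 1.32 against 12.1, but Col1a2 was at 56.6 against 44.8 and Col14a1 at 22.4 against 14.5, not lower as in the class. Within cluster 8, Col1a2 was at 11.6 against 27.3 CPM. The summed fibroblast markers without Gsn were at 126 against 252 CPM in the outer root sheath or bulge and at 34.4 against 26.3 in the upper follicle. In the upper follicle, Fbln1 alone was at 22.0 against 8.23 CPM. Without Gsn and Fbln1, the sums were 29.2 against 81.9 CPM in the outer root sheath or bulge and 12.4 against 18.1 in the upper follicle. With both follicle classes together, 5 of 25 were 2-fold apart, as were 6.7% of all genes.

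Within clusters that had at least 100 cells in both libraries, the fibrillar difference was present in most. Col3a1, Col1a2 and Col1a1 were all at least 2-fold lower in the sitagliptin-labelled library in clusters 2, 3, 6, 9, 10 and 11. In the basal clusters 3 and 9 these were the only 3 of 13 members that were lower, as were 1.87% and 1.52% of all genes. In cluster 2, 5 of 17 members were lower (1.33%), in cluster 6, 4 of 12 (1.67%), in cluster 10, 4 of 15 (1%), and in cluster 11, 3 of 13 (1.24%). Clusters 5 and 8 were the exceptions. Cluster 5 held suprabasal cells with medians of 15055 and 11925.5 UMIs, and of 15 members only Col6a3 was lower there (1.59% of all genes), with Col3a1 at 7.31 against 8.11 CPM, Col1a2 at 6.97 against 8.89 and Col1a1 at 7.83 against 6.18. There the 85 Col3a1 UMIs of the sitagliptin-labelled library lay in 26 of 852 cells, with up to 7 in 1 cell, and the 63 of the PBS-labelled library lay in 50 of 445 cells, with up to 5. In cluster 8, 2 of 18 members were lower (2.21%), Col1a2 and Col5a1, with Col1a2 at 11.6 against 27.3 CPM, while Col1a1 was at 12.2 against 19.7 and Col3a1 had only 2 UMIs against 16, too few for the minimum. Members at least 2-fold higher numbered 2 of 18 in cluster 8 (5.27% of all genes), Col23a1 (3.23, 1.32 to 10.2) and Col4a2 (2.13, 1.17 to 4.24), and 1 of 12 in cluster 6 (1.51%), Col4a6 (2.20, 1.02 to 5.13). There were 0 in clusters 2, 3, 5, 9, 10 and 11, where 1.43%, 1.1%, 1.26%, 1.54%, 1.13% and 2.49% of all genes were. The clusters that belonged almost wholly to the sitagliptin-labelled library had Col3a1 at 11.5 CPM in cluster 0, 7.65 in cluster 1 and 17.9 in cluster 4, beside 0.836 in cluster 3 and 7.31 in cluster 5 of the same library.

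**Figure D5:**
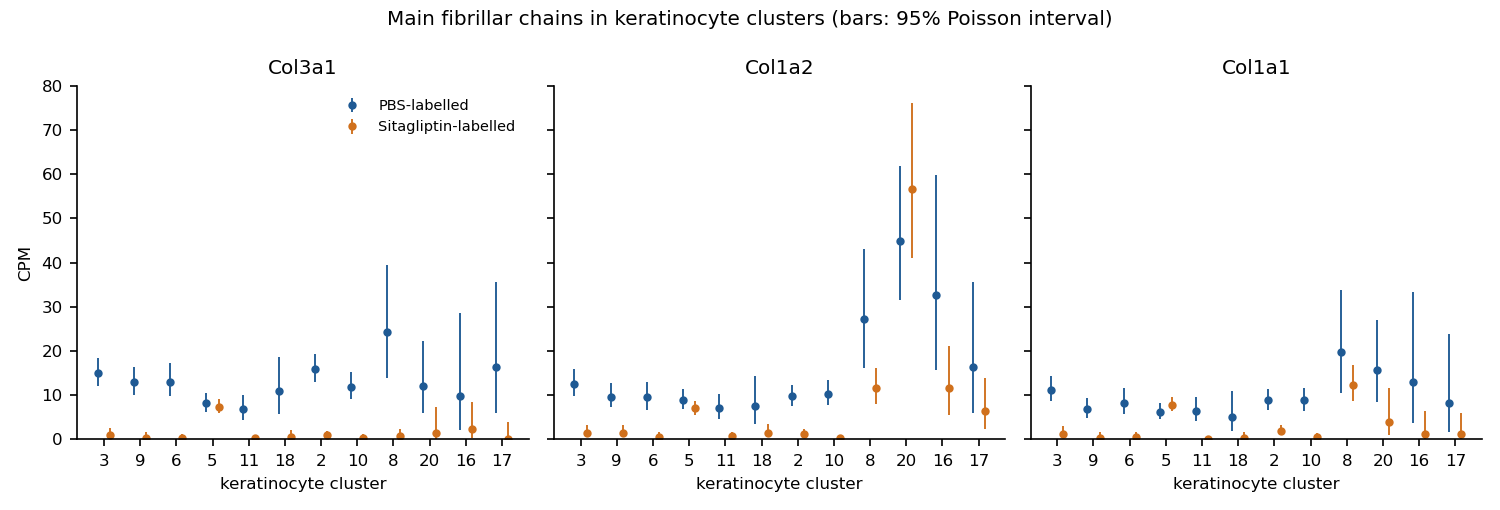
CPM of Col3a1, Col1a2 and Col1a1 in 12 keratinocyte clusters (horizontal axis, cluster number) with at least 50 cells in both libraries, the sebocyte cluster left out, PBS-labelled in blue and sitagliptin-labelled in orange, with 95% Poisson intervals. The blue points lie above the orange in most clusters, the pairs overlap in cluster 5, and Col1a2 in cluster 20 reaches 44.8 and 56.6 CPM.

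The mix of the 3 genes also differed in the follicle of the sitagliptin-labelled library. Its outer root sheath or bulge cells had 119 UMIs of Col1a2 and 13 of Col3a1, a ratio of 9.15 (5.15 to 17.7), against 2.31 (1.51 to 3.62) in the PBS-labelled library and 0.937 in fibroblasts. This ratio of the keratinocytes lies outside the fibroblast interval in both libraries. In basal cells of the 2 libraries, 0 of 14 modification and folding genes and 0 of 5 receptor genes were 2-fold apart. Lower in the sitagliptin-labelled library were Creb3l1 and Pcolce of 5 secretion genes, Mmp13 of 7 degradation genes, which had 0 UMIs in fibroblasts, and Lum and Dcn, the fibroblast markers given above. Over all 11574 genes of this comparison 1.49% were higher and 2.01% lower.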

How the data were processed

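Single cells of mouse skin were profiled by Chromium 10X in 1 library per treatment. The authors deposited raw UMI counts per gene and barcode, made with Cell Ranger 3.1.0 and genome mm10 per the submitters' processing notes; the annotation used for counting is not stated there. Barcodes with at least 500 genes, 1000 UMIs and at most 10% mitochondrial UMIs were kept. Both libraries were clustered together with scanpy 1.11.5 and leidenalg 0.10.2 (2000 variable genes without any collagen gene, 30 components, 15 neighbours, resolution 1), and clusters were named from marker lists that hold no collagen gene. The limits for naming, such as leaving a cluster unnamed when a second class scored over 0.5 of the first, and the further division of clusters outside the keratinocytes were set after seeing the data. The caller marked 2 of 5932 and 0 of 18380 barcodes as doublets and so did not work, and none were removed. UMIs were summed per class and library and divided by the class total (CPM). Genes with at least 20 UMIs over both groups were compared, a 2-fold difference was counted, and a group at 0 was given a floor of 3 counts. Intervals came from scipy 1.17.1. With 1 library per treatment no test was made, and intervals do not cover differences between animals.

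Every member was named once with its highest class. Full values were given for the 12 members with the most UMIs in fibroblasts, for the 4 with the most UMIs in each other class among members at 0.2 or more of the fibroblast level, and for up to 6 members farthest apart in each direction between libraries. From the lists of collagen-related genes up to 4 each were named. The members, lists and rules were chosen with earlier results of these data known. The counting and ratio steps were tested on simulated data. Promoter sequences came from RefSeq and gene positions from GENCODE vM21 (GRCm38.p6). Alternatives covered the clustering, the barcode filters, thinning, the denominator, averaging over cells, doublet scores and the choice of clusters.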

Additional observations from a re-analysis of the deposited data

Results flagged for a closer look

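Col11a1, a minor fibrillar chain best known from cartilage, had 0 UMIs in the retained barcodes of both libraries but 7 UMIs in the 4524 barcodes of the PBS-labelled library that did not pass the filters, 0.516 CPM (0.207 to 1.06). The 3705 barcodes left out of the sitagliptin-labelled library had 0. It is given here because these barcodes took no part in the comparisons.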

How the results depend on the processing

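Of 78 recomputed values under alternative settings, 47 stayed within the spread used here, 31 moved and 0 reversed; 8 of the alternatives were added after seeing the data. The log2 ratio of summed collagen CPM in fibroblasts to keratinocytes was 6.56 and became 6.47 with collagen genes kept in the clustering, 6.38 and 6.42 at resolutions 0.5 and 2, 6.39 with at least 1000 genes and 2000 UMIs, 6.50 with at most 5% mitochondrial UMIs, 6.44 with cells thinned to 1000 UMIs, 6.39 as a mean of single-cell CPM, 6.40 without mitochondrial, ribosomal and haemoglobin genes, 6.63 without the top 8% of doublet scores, and 6.35 with clusters 41 and 48 (52 unnamed barcodes of the PBS-labelled library) counted as fibroblasts. The number of genes highest in fibroblasts stayed between 19 and 21. The log2 ratio of Col4a1 and Col4a2 in endothelial cells to fibroblasts was -0.86 and became -0.63 at resolution 0.5, -1.35 and -1.33 under the stricter gene and mitochondrial filters, -0.58 thinned, -0.48 as a mean of single cells and -0.65 with the added fibroblast clusters. That of Col7a1 in basal to suprabasal keratinocytes was 1.46 and became 1.66 at resolution 0.5, 1.24 with at most 5% mitochondrial UMIs, 1.92 thinned and 1.83 as a mean of single cells. The number of genes 2-fold apart between the libraries was 4 in basal cells, 2 after thinning, and stayed between 7 and 10 in suprabasal cells, where the split of 4 higher and 5 lower became 8 and 1 thinned and 7 and 2 as a mean of single cells. In the follicle it was 5, and became 9 with collagen genes in the clustering, 8 and 3 at resolutions 0.5 and 2, 8 and 9 under the stricter gene and mitochondrial filters, 3 thinned, 2 as a mean of single cells and 10 in clusters with at least 100 cells in both libraries, with a split from 0 higher and 3 lower at resolution 2 to 8 and 1 with at most 5% mitochondrial UMIs; the cause was not tested in any of these cases.

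No paired analysis was possible because each treatment had 1 library. Depth limits the rarest chains: 3 UMIs correspond to 1.25 CPM in the fibroblasts of the PBS-labelled library and to 44.2 CPM in its 27 blood endothelial cells.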
